A study of Mus musculus with 43 samples.

Results

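The regions described here are the stretches of chromatin bound by EKLF in both genotypes that lie at the ends of protein-coding genes. They were chosen from the authors' deposited lists as WT regions that overlap a Nan/+ region by 1 bp or more and whose centre lies at most 1 kb from a start or 3′ end of a protein-coding gene. This gave 1530 of 9174 WT regions. Overlap was found for 36.2% of the WT regions at gene ends, 24.5% of all WT regions and 14.7% of all Nan/+ regions. Overlap with the Nan/+ list and distance from a gene end chose them, so both are given as description. EKLF ChIP was done on dispersed, crosslinked liver cells of mouse embryos at day E13.5, labelled primary erythroid. The groups were Nan/+ embryos, which carry 1 Nan and 1 wild-type copy of Klf1, and WT embryos of the Nan strain. Genotype was read from the genotype labels, because the cell line label, Klf1 / Klf1-Nan, is the same in the Nan/+ and the WT libraries. Each genotype had 3 EKLF ChIP libraries and 2 input libraries, and the series holds 43 samples in 19 groups. Per the series design, the ChIP replicates came from littermate livers. The labels' protocols give no sorting of cell types, and the Nan/+ libraries cannot tell the mutant EKLF protein from the wild-type protein made in the same cells.

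EKLF, the product of Klf1, is a zinc-finger transcription factor of red cell precursors that binds CACCC-type sequences in promoters and enhancers. It is known for activating the adult beta-globin gene and genes for heme synthesis, the red cell membrane and the cell cycle. The Nan allele changes an amino acid of a zinc finger that contacts DNA, and the mutant protein is known to keep some sites of the wild-type protein, lose others and bind further ones.

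The libraries were of like depth: 72023512 to 100763687 tags in the Nan/+ ChIP libraries and 74140385 to 103170594 in the WT ChIP libraries. The authors made 1 list from the 3 ChIP libraries of a genotype together, so no region has a value per replicate and no difference below has a replicate check. Their score was 1 for each region, so occupancy has no strength here, and width is the only measure of size. The smallest region allowed by the calling was 176 bp in the Nan/+ list and 126 bp in the WT list. Regions are not replicates, and the 95% intervals cover counting error only.

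The promoters shown first carry the sequence side of the result. They belong to erythroid or transcription elongation genes whose promoter lies wholly or partly under a shared region, with the Hbb-bs promoter as a contrast. Each runs 5′ to 3′ on the gene's strand from 250 bases before the start to 50 after it and comes from RefSeq, build GRCm38.p6, whose chromosome coordinates are those of mm10. Capitals mark every match, on either strand, to the 8-base pattern CCNCNCCC, which takes in the CACCC box and the GC-rich relatives bound by EKLF and other Sp/Klf proteins. In the Kel promoter, which had no such match, capitals mark AGATAA and TGATAA, the core sequence bound by GATA1. Positions are distances of a match's first base from the start. E2f2 encodes an activating E2F cell cycle factor, and its promoter (chr4:136172024-136172323, plus strand) had matches at -250 and -54. Zfpm1 encodes FOG1, the cofactor of GATA1, and its promoter (chr8:122281891-122282190, plus strand) had 4 matches. Klf3 encodes a repressor of the same zinc-finger family, and its promoter (chr5:64803271-64803570, plus strand) had 10 matches, some of which run into each other. Hexim1 encodes an inhibitor of the elongation kinase P-TEFb, and its promoter (chr11:103116075-103116374, plus strand) had 3. Kel encodes a red cell surface antigen, and its promoter (chr6:41704276-41704575, minus strand) had the GATA sequences at -56 and -19. Hbb-bs encodes an adult beta-globin chain, and its promoter (chr7:103827879-103828178, minus strand) has the CCACACCC form at -93. The Klf3, Hexim1 and Hbb-bs promoters were picked after their values were seen.
E2f2: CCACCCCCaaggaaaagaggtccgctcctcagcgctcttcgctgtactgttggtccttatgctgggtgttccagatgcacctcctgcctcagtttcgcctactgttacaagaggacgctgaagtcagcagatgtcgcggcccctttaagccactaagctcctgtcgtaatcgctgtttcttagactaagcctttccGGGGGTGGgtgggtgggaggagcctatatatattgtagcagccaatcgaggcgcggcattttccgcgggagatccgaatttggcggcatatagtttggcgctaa
Zfpm1: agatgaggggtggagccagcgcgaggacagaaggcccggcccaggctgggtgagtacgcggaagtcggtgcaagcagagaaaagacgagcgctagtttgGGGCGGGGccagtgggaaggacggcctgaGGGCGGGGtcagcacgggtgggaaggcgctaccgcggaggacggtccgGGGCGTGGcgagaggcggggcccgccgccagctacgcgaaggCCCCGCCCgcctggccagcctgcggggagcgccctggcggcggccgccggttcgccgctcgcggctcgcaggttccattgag
Klf3: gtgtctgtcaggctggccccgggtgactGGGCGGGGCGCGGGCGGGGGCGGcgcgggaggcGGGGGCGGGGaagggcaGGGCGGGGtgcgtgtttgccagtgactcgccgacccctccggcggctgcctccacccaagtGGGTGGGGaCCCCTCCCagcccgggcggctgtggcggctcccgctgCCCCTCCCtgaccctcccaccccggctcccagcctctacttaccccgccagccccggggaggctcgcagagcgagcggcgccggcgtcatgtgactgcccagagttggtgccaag
Hexim1: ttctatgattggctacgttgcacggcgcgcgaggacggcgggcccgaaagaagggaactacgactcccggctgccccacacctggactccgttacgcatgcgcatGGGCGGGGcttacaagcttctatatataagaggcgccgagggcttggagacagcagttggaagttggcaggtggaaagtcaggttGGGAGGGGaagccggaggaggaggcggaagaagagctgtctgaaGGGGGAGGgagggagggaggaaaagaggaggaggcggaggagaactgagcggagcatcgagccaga
Kel: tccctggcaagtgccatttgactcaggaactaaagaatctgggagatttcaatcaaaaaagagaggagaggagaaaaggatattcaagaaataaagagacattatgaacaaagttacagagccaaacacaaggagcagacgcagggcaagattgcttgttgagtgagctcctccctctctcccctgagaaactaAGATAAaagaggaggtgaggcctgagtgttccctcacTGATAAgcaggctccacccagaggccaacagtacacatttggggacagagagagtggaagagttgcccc
Hbb-bs: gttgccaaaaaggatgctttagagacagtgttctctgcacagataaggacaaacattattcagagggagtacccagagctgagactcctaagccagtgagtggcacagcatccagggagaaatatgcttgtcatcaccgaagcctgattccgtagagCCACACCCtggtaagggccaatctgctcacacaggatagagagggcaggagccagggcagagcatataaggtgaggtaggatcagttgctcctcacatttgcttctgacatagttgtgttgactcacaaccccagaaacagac
The Nan/+ list covered 292 bases of the E2f2 promoter and the WT list 300. Of the Zfpm1 promoter the Nan/+ region covered 300 bases and the WT region 205. That WT region ended at 122282095, short of the start of the promoter shown. The rule used the gene's lower end, at 122281856. The Klf3 and Hexim1 promoters lay whole under both. The Nan/+ region at Kel covered 196 bases and the WT region 300. The Hbb-bs promoter lay whole under a WT region and had 0 bases under a Nan/+ region.

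Most shared regions sat at the starts of genes. Strand, which the rule did not use, was known for the genes at 1298 of the 1530 regions. Of these, 1170 lay only at a start, 90.1% (95% interval 88.4 to 91.7), 45 lay only at a 3′ end, 3.47% (2.54 to 4.61), and 83 lay at the start of 1 gene and an end of the same or another gene. Regions of the Nan/+ list alone lay only at a start in 71.9% and only at a 3′ end in 22.8% of 1515 cases. Regions of the WT list alone did so in 87.6% and 8.07% of 2243 cases. The share at a 3′ end was therefore lower among shared regions by 19.4 percentage points than among Nan/+-only regions (difference -19.4, Newcombe interval -21.7 to -17.0) and differed by -4.60 points from that among WT-only regions (-6.08 to -3.05). The share at starts was higher by 18.2 points than in Nan/+-only regions (15.4 to 21.0) and by 2.58 points than in WT-only regions (0.402 to 4.65). Width moved with these classes: the median was 550 bp for shared regions in the WT list, 226 bp for Nan/+-only and 440 bp for WT-only regions at gene ends, and its part in the difference was not tested.

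**Figure D1:**
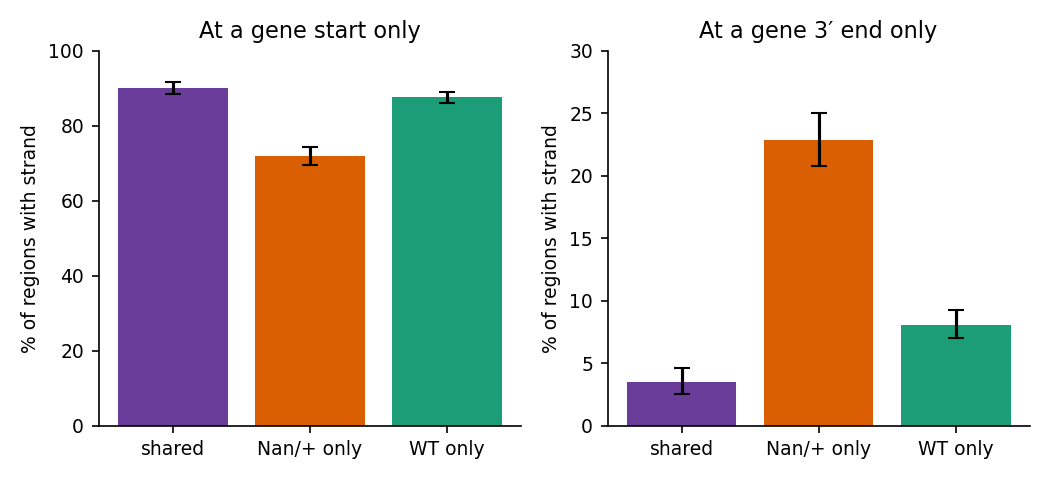
Share of EKLF regions at gene ends that lie only at a gene start (left) and only at a gene 3′ end (right), in percent of regions whose genes have a strand, for shared, Nan/+-only and WT-only regions. Error bars are exact binomial 95% intervals; the shared bars stand at 90.1% and 3.47%, and the Nan/+-only bars at 71.9% and 22.8%.

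At the starts the shared regions were, by median, centred close to the first base of the gene. The region nearest a start was centred at a median of -6.75 bp in the Nan/+ list and -7.5 bp in the WT list, where minus is upstream. Of these centres 74.0% lay within 250 bp of the start in the Nan/+ list and 77.0% in the WT list. The share was 55.9% among Nan/+-only and 71.9% among WT-only regions, whose median centres lay at 0 and 10.5 bp. About as many lay upstream as downstream, with 52.2% upstream in the Nan/+ list and 52.1% in the WT list. Divergent gene pairs, whose starts face away from each other, held 116 of 1253 shared regions at starts (9.26%). They held 6.76% of Nan/+-only and 9.12% of WT-only regions.

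**Figure D2:**
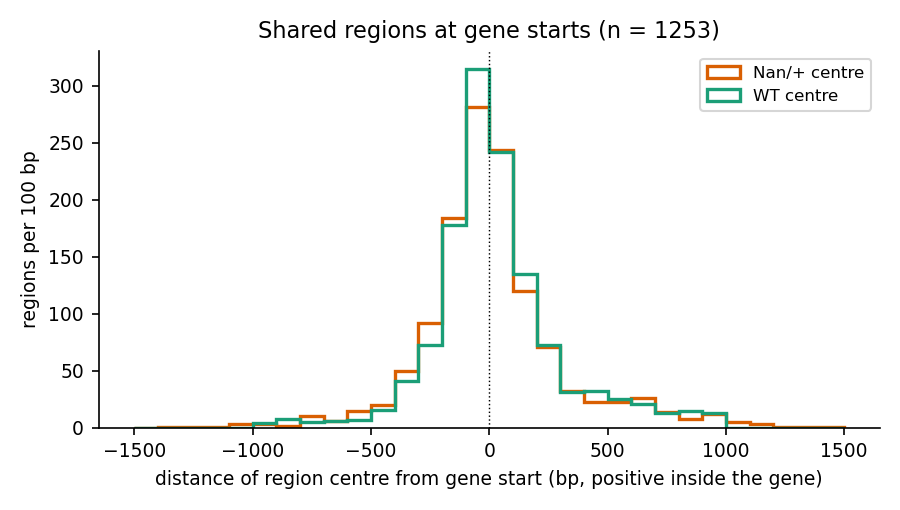
Distance of the region centre from the nearest gene start in bp (positive inside the gene) for the 1253 shared regions at starts, counted in 100 bp bins, for the overlapping Nan/+ region and for the WT region. Both distributions peak at the start, where the medians over the lists are -6.75 bp in Nan/+ and -7.5 bp in WT.

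The Nan/+ region and the WT region of a pair differed in width in all but 2 of 1572 pairs. Of the shared regions 1490 overlapped 1 Nan/+ region, 38 overlapped 2 and 2 overlapped 3. The Nan/+ region had a median width of 402 bp (range 176 to 3007) and the WT region 550 bp (126 to 6427), although the Nan/+ list was called with the larger region size. The Nan/+ region was narrower in 1060 pairs (67.4%), wider in 510 and equal in 2. It lay wholly inside the WT region in 569 pairs, and the WT region lay wholly inside the Nan/+ region in 225. The overlap had a median of 318 bp, and the centres lay a median of 107.75 bp apart. In 730 pairs (46.4%) the centres were within 100 bp. Along the gene the shift went either way: of 1034 pairs at a single start, the Nan/+ centre was further downstream in 509 and further upstream in 524. The median shift was -3.5 bp, with quartiles of -111.5 and 103.5 bp. Nan/+ regions of the minimum width made up 12.2% of those overlapping a shared region. They made up 40.7% of Nan/+-only regions at gene ends and 54.5% of the whole Nan/+ list, and overlap is easier for a wider region.

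**Figure D3:**
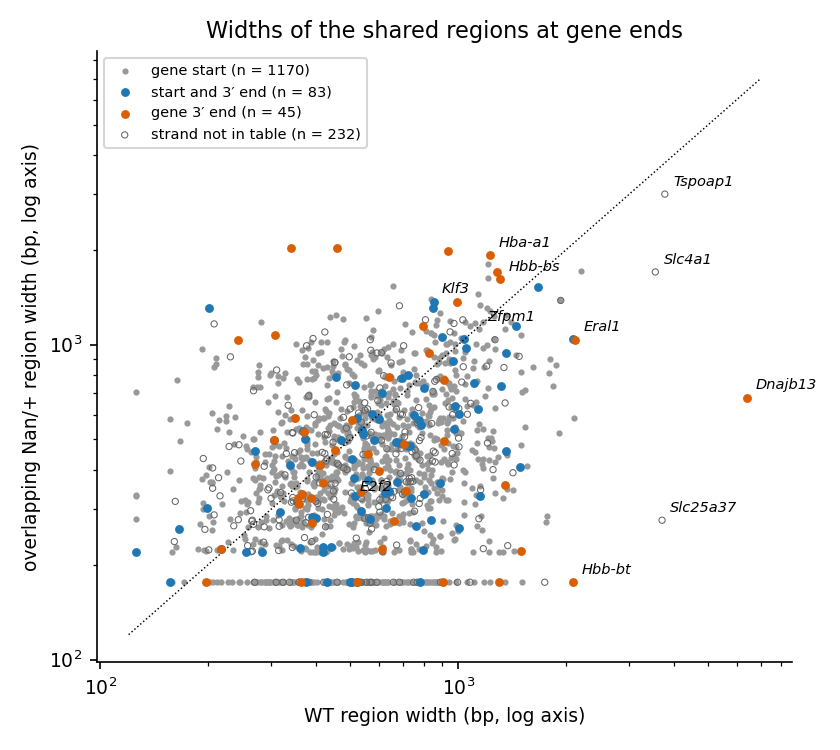
Width of the overlapping Nan/+ region (vertical) against width of the WT region (horizontal), both in bp on log axes, for the 1530 shared regions at gene ends, with colour by position relative to genes. Where a WT region overlaps several Nan/+ regions, the one with the longest overlap is drawn; the dotted line marks equal width, and the row of points at 176 bp is the smallest Nan/+ region.

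The 10 widest shared regions, ranked by WT width, lay at red cell genes and at genes of other functions. The widest was at the 3′ end of Dnajb13, with 3 Nan/+ regions, the longest-overlapping 679 bp wide, within a WT region of 6427 bp. At Slc25a37, the gene for mitoferrin, which carries iron into mitochondria, the Nan/+ region was 277 bp and the WT region 3711 bp. At Slc4a1, which encodes the band 3 anion exchanger, the Nan/+ region was 1702 bp and the WT region 3553 bp. Mrm1, which encodes a mitochondrial rRNA methyltransferase, had a Nan/+ region of 1717 bp and a WT region of 2201 bp at its start. Clic4, an intracellular chloride channel protein gene, had a Nan/+ region of 584 bp and a WT region of 2109 bp. Arrb1, which encodes a beta-arrestin, had a Nan/+ region of 1382 bp and a WT region of 1934 bp. The remaining widest regions, at Tspoap1, Eral1, H1f5 and Hbb-bt, are described with the microRNAs, the histones and the globins.

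A pair of the widest regions held microRNA genes. Of 1005 microRNA hairpins in the RefSeq table, 9 overlapped 6 shared regions. The WT region at the 3′ end of Eral1 (chr11:78072447-78074566) covered Mir144 and Mir451a, which are made from a single transcript abundant in red cell precursors. Its Nan/+ region (chr11:78073364-78074401) began after the hairpins and did not cover them. The WT region at Tspoap1 (chr11:87756416-87760193, 3778 bp) covered Mir142, a microRNA of blood cells, and its 3007 bp Nan/+ region (chr11:87758168-87761174) did not. The mature sequences, from RefSeq GRCm38.p6 with the seed (bases 2 to 8) in capitals, show that these microRNAs share no seed. They were picked after their positions were seen.
mmu-miR-144-5p: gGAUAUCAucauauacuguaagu
mmu-miR-144-3p: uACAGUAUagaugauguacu
mmu-miR-451a: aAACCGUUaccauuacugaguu
mmu-miR-142a-5p: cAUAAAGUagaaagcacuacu
mmu-miR-142a-3p: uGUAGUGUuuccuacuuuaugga

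Over all 21523 protein-coding genes, 1766 had a shared region at an end, 8.21%. Any Nan/+ region at an end was found for 3514 genes (16.3%) and any WT region for 4592 (21.3%). A Nan/+ region was counted there only if its own centre lay within 1 kb of an end. A gene with a shared region can therefore lack one, as Hba-a2 and Ep300 did. The median gene with a shared region was 24.07 kb long, and the median over all genes was 17.37 kb. The share of genes with one ran from 2.18% on chromosome X (21 of 963) and 5.58% on chromosome 7 to 10.9% on chromosome 19. Of the shared regions 1240 lay near 1 gene, 285 near 2 and 5 near 3.

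At the adult globin genes the genotypes shared regions at the 3′ ends and not at the starts. At Hba-a1, an alpha-globin gene, the Nan/+ region was 1921 bp and the WT region 1229 bp, with the Nan/+ centre 768.5 bp and the WT centre 772.5 bp past the 3′ end. A further Nan/+ region of the minimum width lay 375 bp upstream of the Hba-a1 start with no WT region over it. At Hba-a2 the Nan/+ region was 1986 bp and the WT region 936 bp, with the WT centre 756 bp past the 3′ end and the Nan/+ centre beyond 1 kb. At Hbb-bs the Nan/+ region was 1612 bp and the WT region 1310 bp, with the Nan/+ centre 522 bp and the WT centre 402 bp past the 3′ end. At Hbb-bt 2 Nan/+ regions of 176 bp lay within a WT region of 2092 bp, and a further Nan/+ region of 176 bp, centred 269 bp inside the 3′ end, had no WT region over it. The starts of Hbb-bs and Hbb-bt were covered in the WT list alone, by regions of 492 and 304 bp. Hba-a1 and Hba-a2, and Hbb-bs and Hbb-bt, are near-identical copies, so how reads were divided between the copies is uncertain.

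Other red cell genes had shared regions at some ends or positions and WT-only regions at others. E2f2 had the shared region at its start, 323 bp in Nan/+ and 504 bp in WT, and a WT-only region of 1372 bp at its 3′ end. Zfpm1 was alike, with 1121 bp in Nan/+ and 1143 bp in WT at the start and a WT-only region of 833 bp at the end. Tal1, which encodes a helix-loop-helix master regulator of blood formation, had the reverse order. Its 3′ end held the shared region, 1366 bp in Nan/+ and 993 bp in WT, and 2 WT-only regions were centred within 1 kb of its start. Slc4a1 had its shared region at the end of lower coordinate and a WT-only region of 1561 bp at the other. Epor, the erythropoietin receptor gene, had both near its start: a shared region centred 951.5 bp inside the gene in the WT list and a WT-only region centred 89 bp upstream.

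Several well-known EKLF targets and cofactors had no shared region at an end. Klf1 itself had 3 WT-only regions at its ends and 0 Nan/+ regions. Alas2, which encodes the erythroid enzyme that begins heme synthesis, had a Nan/+-only region at the start and a WT-only region at the end. Tfrc, the transferrin receptor gene, had a WT-only region of 1774 bp at its start, and E2f4 had 2 WT-only regions. Ank1, which encodes erythrocyte ankyrin, had 1 Nan/+ region at an end whose WT partner was centred beyond 1 kb. Gata1, Bcl11a, Crebbp and Dmtn had no region of either list at an end. Of the membrane genes, Epb42 had 1 shared region and Bsg had 2.

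Over genes longer than 3 kb with a strand, 78 had a shared region at the 3′ end. At their starts, 15 had a shared region, 4 a Nan/+-only region, 19 a WT-only region, 2 both of these and 38 none. Tal1, Slc2a1, which encodes a glucose transporter, and Eral1 were among those with a WT-only region at the start. The 1288 genes with a shared region at the start mostly had no region at the 3′ end (1162 genes, 90.2%), whereas 72 had a Nan/+-only region there (5.59%) and 36 a WT-only region (2.80%). These shares were not set beside those over all genes. Regions only at a 3′ end numbered 346 in the Nan/+-only and 181 in the WT-only class. In all, 28 genes had different shared regions at their 2 ends. Among them were Bsg, Gpx1, which encodes a glutathione peroxidase of red cells, and Lyl1, a relative of Tal1.

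Erythroid transcription factors and cofactors had a shared region for 17 of 32 genes, 53.1% (95% interval 34.7 to 70.9), beside 8.21% of all genes. In this list 19 genes had any Nan/+ region and 21 any WT region. The widest by WT width belonged to Lyl1 (Nan/+ 1703 bp, WT 1280 bp, at the 3′ end), Tcf3, the E-protein partner of Tal1 (Nan/+ 532 bp, WT 1248 bp, at the start), Zfpm1 and Foxo3, a factor of red cell maturation (Nan/+ 313 bp, WT 1117 bp). By Nan/+ width, Klf3 (1368 bp) and Tal1 (1366 bp) came next after Lyl1. In this and the other lists the leading genes were ranked by WT width, which favours pairs with the wider region in WT. Heme synthesis and transport had 7 of 17 genes (41.2%), with 10 in any Nan/+ and 14 in any WT region. They included the mitochondrial transporter gene Abcb10 (Nan/+ 638 bp, WT 1057 bp), Slc25a39 (Nan/+ 475 bp, WT 965 bp) and Fech, which encodes the enzyme that inserts iron into heme (Nan/+ 415 bp, WT 463 bp). Red cell membrane and cytoskeleton had 10 of 27 (37.0%), with 16 in any Nan/+ and 18 in any WT region. Beside Slc4a1 these were led by Sptb, which encodes erythroid beta-spectrin (Nan/+ 811 bp, WT 1788 bp), Kel (Nan/+ 219 bp, WT 1300 bp) and Slc2a1 (Nan/+ 176 bp, WT 1298 bp). The globin list had 4 of 10, with 5 in any Nan/+ region, Hba-a2 not among them, and 6 in any WT region. The iron list had 3 of 17 (interval 3.80 to 43.4%, which includes 8.21%), with 6 in any Nan/+ and 10 in any WT region. With a reciprocal overlap of 50% between the Nan/+ and WT regions, 11 erythroid factor genes, 4 heme genes, 3 membrane genes, 2 globin genes and 0 iron genes kept a shared region. Over all 21523 genes, 1084 did, against 1766 with an overlap of 1 bp. With a limit of 500 bp, 1 globin gene and 1563 of all genes did. Iron genes with a shared region at an overlap of 1 bp were Slc25a37, its homologue Slc25a28 (Nan/+ 176 bp, WT 1227 bp) and the iron chaperone gene Pcbp1 (Nan/+ 394 bp, WT 666 bp).

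Genes of signalling, cell cycle and transcription elongation also had shared regions, to be read beside the 8.21% of all genes with one. The intervals for the G2 and mitosis list (3.21 to 37.9%) and the histone acetylation list (1.38 to 34.7%) include that share. That for the signalling list began at 8.66%, just above it. Erythropoietin and Kit signalling had 5 of 20 genes with a shared region, with 9 in any Nan/+ and 8 in any WT region. They were led by the kinase gene Pim1 (Nan/+ 1018 bp, WT 859 bp). The G1 and S phase list had 7 of 29, with 15 in any Nan/+ and 13 in any WT region, led by E2f3 (Nan/+ 238 bp, WT 1220 bp), the inhibitor gene Cdkn2d (Nan/+ 757 bp, WT 934 bp), the cyclin E gene Ccne1 (Nan/+ 381 bp, WT 640 bp) and the inhibitor gene Cdkn1b (Nan/+ 1213 bp, WT 552 bp). The G2 and mitosis list had 3 of 20, with 6 in any Nan/+ and 12 in any WT region: the kinase genes Aurka (Nan/+ 221 bp, WT 1494 bp, at the 3′ end) and Nek2 (Nan/+ 225 bp, WT 375 bp) and the phosphatase gene Cdc25b (Nan/+ 221 bp, WT 573 bp). RNA polymerase II pausing and elongation, the step named in the title of the series, had 8 of 29 (27.6%, interval 12.7 to 47.2), with 13 in any Nan/+ and 14 in any WT region. All 8 lay at starts. They were led by Hexim1 (Nan/+ 356 bp, WT 1154 bp), the P-TEFb cyclin gene Ccnt2 (Nan/+ 256 bp, WT 998 bp), Ell2 (Nan/+ 653 bp, WT 628 bp), which encodes an elongation factor, and Nelfa (Nan/+ 515 bp, WT 574 bp), which encodes a subunit of the pausing factor NELF. Histone acetylation enzymes had 2 of 18, Ep300 (Nan/+ 558 bp, WT 1145 bp) and Hdac1 (Nan/+ 378 bp, WT 741 bp). In this list 5 genes, Ep300 not among them, had any Nan/+ region at an end and 8 any WT region. Enucleation and organelle clearance had 6 of 22, with 9 in any Nan/+ and 15 in any WT region, led by Gabarap, an autophagy gene (Nan/+ 639 bp, WT 977 bp). With a reciprocal overlap of 50%, the count was 3 of 29 for pausing and elongation, 1 of 20 for G2 and mitosis and 1 of 18 for histone acetylation. Over all genes it was 1084 of 21523, against 1766 with an overlap of 1 bp. A limit of 500 bp also left 1 gene in the G2 and mitosis list and 1 in the histone acetylation list, with 1563 over all genes.

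Replication-dependent histone genes had the highest share of the 30 lists, 40 of 63 genes (63.5%, interval 50.4 to 75.3), with 47 in any Nan/+ and 53 in any WT region. They lie in clusters, so neighbours share regions: 34 regions served the 40 genes. Many are near-identical copies, and the division of reads among them is uncertain. At the linker histone gene H1f5 the Nan/+ region (1040 bp) and the WT region (2099 bp) each spanned the whole gene of 794 bp. H2ac19 and H3c15 were the only genes with 3 shared regions each.

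Housekeeping lists varied. Cytoplasmic ribosomal proteins had 20 of 84 genes (23.8%), with 34 in any Nan/+ and 46 in any WT region. Translation initiation factors had 12 of 55 (21.8%), with 18 in any Nan/+ and 33 in any WT region, and mitochondrial ribosomal proteins 11 of 78 (14.1%), with 22 in any Nan/+ and 26 in any WT region. The splicing list had 8 of 47, RNA polymerase II and general initiation factors 9 of 72, the SLC25 carriers 9 of 47 and ubiquitin-conjugating enzymes 4 of 31. In that order, 15, 19, 14 and 15 genes had any Nan/+ region and 22, 36, 17 and 14 any WT region. The intervals for the splicing (7.65 to 30.8%), RNA polymerase II (5.88 to 22.4%) and ubiquitin-conjugating (3.63 to 29.8%) lists include the 8.21% of all genes. So does that for mitochondrial ribosomal proteins (7.26 to 23.8%). Kruppel-like and Sp factors had 6 of 26, led by Sp1 (Nan/+ 1387 bp, WT 1919 bp) and Sp4 (Nan/+ 523 bp, WT 1909 bp). Proteasome subunits had 3 of 39 (7.69%) and respiratory chain subunits 4 of 81 (4.94%), near or below the 8.21% of all genes. The C2H2 zinc finger genes named Zfp had 17 of 394 (4.31%). With a reciprocal overlap of 50%, cytoplasmic ribosomal proteins had 8 genes, mitochondrial ribosomal proteins 7, initiation factors 6, RNA polymerase II and general initiation factors 5, the splicing, SLC25 and Kruppel-like lists 3 each, respiratory chain subunits 2 and proteasome subunits 1. Under that rule 1084 of all 21523 genes had one, against 1766 with an overlap of 1 bp.

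Markers of the other cells in a fetal liver had no shared region, beside 8.21% of all genes. Hepatoblast markers had 0 of 15 (interval 0 to 21.8%), macrophage markers 0 of 14, endothelial markers 0 of 11, and lymphoid and stem cell markers 0 of 15, and these 4 lists had no region of either genotype at an end. Megakaryocyte markers had 0 of 15, with 1 gene in any Nan/+ and 2 in any WT region. The marker lists are small, and their intervals, with upper limits of 21.8 to 28.5%, include 8.21%. Their counts of shared regions therefore cannot be told apart from the share over all genes. Olfactory receptor genes had 0 of 1105 (interval 0 to 0.333%) and keratin genes 0 of 105. Of the markers that define the labelled cell type, Slc4a1, Hba-a1 and Hbb-bs had shared regions and Alas2 did not.

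**Figure D4:**
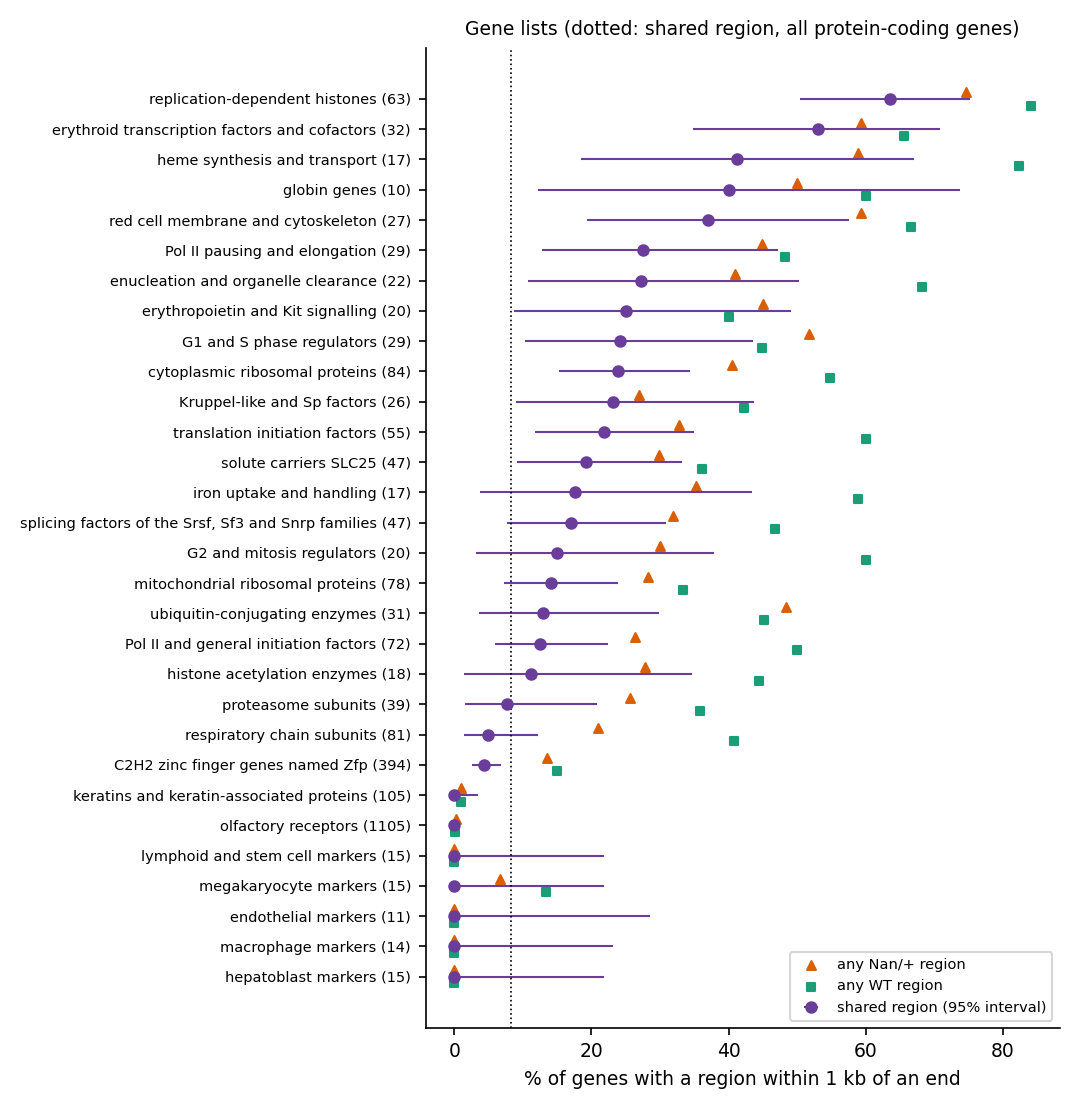
Percent of the genes of each list (number of genes in brackets) with a shared region within 1 kb of an end (circles, exact binomial 95% intervals), with any Nan/+ region (triangles) and with any WT region (squares). The dotted line marks the 8.21% of all protein-coding genes with a shared region; histone genes stand highest at 63.5%, erythroid transcription factors at 53.1%.

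Promoters under shared regions were GC-rich and held the CCNCNCCC pattern more often than others. At like GC content, given below, this lead varied by band and was reversed in some comparisons. The pattern was searched on both strands in the 300 bases of 21045 RefSeq promoters, of which 1400 (6.65%) touched a shared region. A match was found in 78.4% of these, in 71.7% of 835 promoters under a Nan/+-only region, in 74.9% of 2151 under a WT-only region and in 57.1% of all promoters. The share under shared regions was higher by 6.69 points than under Nan/+-only regions (Newcombe interval 2.99 to 10.5) and by 3.49 points than under WT-only regions (0.629 to 6.28). Neighbouring starts of 1 gene share bases, so the promoters are not independent and these intervals are too narrow. A match is a stretch of letters and was not shown to be bound.

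The forms with G and with A in the central variable position were counted apart. CCNCGCCC was present in 60.4% of promoters under shared regions, in 52.6% under Nan/+-only, in 52.5% under WT-only regions and in 31.9% of all promoters. The share under shared regions was higher by 7.78 points than under Nan/+-only regions (3.54 to 12.0) and by 7.82 points than under WT-only regions (4.49 to 11.1). CCNCACCC, the CACCC form, was present in 20.6% under shared, 19.3% under Nan/+-only, 21.4% under WT-only regions and 18.2% of all. Shared regions differed by 1.29 points from Nan/+-only regions (-2.18 to 4.64) and by -0.860 points from WT-only regions (-3.57 to 1.91), and both intervals include 0. CCACACCC, the form in the Hbb-bs promoter, was present in 4.57% under shared, 4.91% under Nan/+-only, 4.00% under WT-only regions and 3.64% of all. Each form is a subset of CCNCNCCC. GGGCGG, the Sp1-type GC box, overlapped 54.1% of the 3690 CCNCNCCC matches. It was present in 81.8% of promoters under shared regions, 72.9% under Nan/+-only and 77.4% under WT-only regions, and 46.7% of all promoters. CCAAT was present in 44.8% under shared, 39.9% under Nan/+-only, 40.5% under WT-only regions and 38.5% of all. TGATAA was present in 2.00% under shared, 4.19% under Nan/+-only, 2.70% under WT-only regions and 7.51% of all. AGATAA was present in 5.21% under shared, 5.99% under Nan/+-only, 4.83% under WT-only regions and 9.68% of all. For TATAAA these shares were 5.64%, 5.03%, 5.11% and 12.7%. For both, the intervals of the differences of shared from Nan/+-only and from WT-only regions include 0. CCGGAAG was present in 20.9% under shared, 24.3% under Nan/+-only, 23.9% under WT-only regions and 11.7% of all. Its share under shared regions differed by -3.01 points from WT-only (-5.77 to -0.192) and -3.38 from Nan/+-only regions (-7.04 to 0.174). Further patterns searched are not given.

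Base composition moved with these shares, and promoters were divided by GC content after the data were seen. The median GC content was 65.3% under shared regions, 62.0% under Nan/+-only and 63.3% under WT-only regions, and 56.7% over all promoters. The median number of CpG pairs was 26 under shared, 22 under Nan/+-only and 24 under WT-only regions, and 13 over all promoters. Among promoters of 60 to 70% GC, CCNCNCCC was present in 83.2% under shared regions (80.2 to 86.0), 81.4% under Nan/+-only, 78.5% under WT-only regions and 80.5% under no region. CCNCGCCC was present in 65.1% under shared regions (61.4 to 68.7), 58.9% under Nan/+-only (53.6 to 64.0), 57.3% under WT-only (54.2 to 60.3) and 49.4% under no region. In the other GC bands CCNCGCCC was not more frequent under shared than under Nan/+-only regions. Below 50% GC it was present in 10.8% under shared, 16.9% under Nan/+-only and 8.05% under WT-only regions. At 50 to 60% GC it was present in 36.4% under shared, 36.9% under Nan/+-only and 36.0% under WT-only regions, and above 70% GC in 79.6% under shared, 79.7% under Nan/+-only and 72.8% under WT-only regions. Under no region it was present in 2.72%, 19.7% and 71.9% of promoters below 50%, at 50 to 60% and above 70% GC. The share of promoters that lay under a shared region was 1.08%, 4.39%, 12.0% and 13.6% in promoters of under 50%, 50 to 60%, 60 to 70% and over 70% GC.

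Within the promoters of shared regions, bases under both lists held 1.01 CCNCNCCC matches per 100 bases, with a GC content of 66.3%. Bases under the Nan/+ list alone held 0.624 (GC 61.1%), bases under the WT list alone 0.716 (GC 62.5%) and bases under neither 0.381 (GC 58.0%). Counts along the promoters were highest just upstream of the start: 36.6 matches per 100 promoters began in the 25 bases from -50, and 14.1 in the 25 bases from -250. Other promoters had a like rise. The counts from -50 and from -250 were 28.5 and 12.1 under Nan/+-only regions, 33.5 and 10.3 under WT-only regions, and 19.8 and 7.23 under no region. Place along the promoter was not held constant in the densities by coverage. The promoters of erythroid factor genes under shared regions, with a median GC content of 68.3%, held a match in 14 of 15. The histone promoters, with a median GC content of 45.7%, held one in 11 of 30. Of the red cell membrane promoters 3 of 5 held one, and those of Kel and Epb42 did not.

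**Figure D5:**
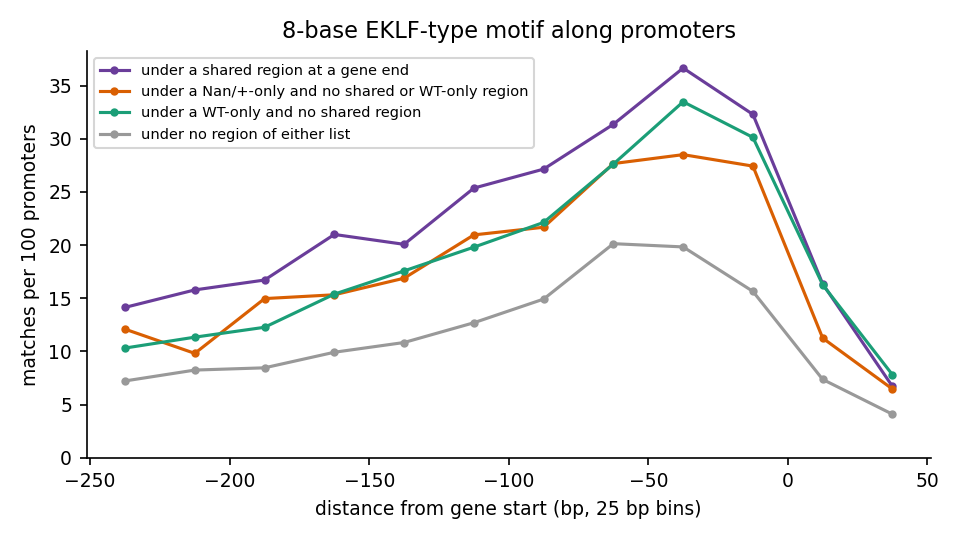
Matches of CCNCNCCC per 100 promoters in 25 bp bins along the promoter, by distance from the gene start in bp, for promoters under shared, Nan/+-only, WT-only and no regions. The shared promoters reach 36.6 matches per 100 promoters in the bin from -50 bp, the highest point in the plot.

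The limits that chose the regions cut through neighbouring values. The last regions inside the 1 kb limit lay 998 bp from the end of Hbb-bt, 996.5 bp at Trim41, 991.5 bp at Ankrd13d, 991 bp at Jund and 981.5 bp at Ccna2. The first outside it lay 1001.5 bp from an end of Klhl17, 1003 bp at Pdk2, 1007 bp at Trp53, 1008.5 bp at Limk1 and 1011.5 bp at Wdr7. The smallest overlaps were 3 bp at Paxip1, 5 bp at Fmr1 and 7 bp at Eif1b. WT-only regions at Mob3c and Nvl missed a Nan/+ region by 0 and 3 bp, and 44 WT-only regions at gene ends lay within 100 bp of one.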

How the data were processed

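EKLF ChIP regions came as 1 list for each genotype, drawn from its 3 ChIP libraries. Per the file headers, the authors called regions with HOMER on mm10 against input, with q of 0.01, fold of 4 and a DESeq2 step inside HOMER (false discovery rate 0.01, log2 fold 2). The size and minimum distance were 175 and 300 bp for Nan/+, and 125 and 250 bp for WT, so widths are not measured alike. Bowtie2 2.1, SAMtools 1.1, bcl2fastq 2.17 and deepTools 3.5 are listed in the submitters' processing notes. The score deposited by the authors was 1 throughout and was not used. Other assays of the series were not analysed here.

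Regions on the mitochondrial chromosome and unplaced sequence were left out, which left 15559 Nan/+ of 15564 and 9174 WT of 9181. Positions are counted from 1. Genes came from the RefSeq table of GRCm38.p6: of 21900 protein-coding genes, 108 on alternate loci and 269 on Y, mitochondrial or unplaced sequence were left out. Strand, from the RefSeq promoter table by gene ID, was known for 17274 genes (80.3%). No genome sequence was used, so motifs were searched in promoters alone. Intervals are exact binomial (Clopper-Pearson) 95% intervals for shares and Newcombe intervals for differences, computed with Python 3.11.15, pandas 2.3.3 and SciPy 1.17.1 and checked on simulated data.

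The regions, gene lists and comparisons were chosen with earlier results of these data known. Named were the 10 widest regions and up to 4 genes per list with the widest shared region, both by WT width. Also named were the genes with most regions, those nearest the limits and 24 preset genes. Further genes were picked with their values in view, and some genes under the rule are not reported here. Alternatives changed the overlap, distance, width, list and motif.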

Additional observations from a re-analysis of the deposited data

How the results depend on the processing

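A reciprocal overlap of 50% left 920 shared regions, 1084 genes with one and 122 genes over all lists, against 1530, 1766 and 210. The other settings left 1349 to 1635 regions: an overlap of 50 bp, Nan/+ regions above the minimum width, limits of 500 bp and 2 kb, and the same rule on the Nan/+ list. The share at starts was 94.0% with a limit of 500 bp and 94.6% for regions near 1 gene, against 90.1%; the last setting was added after the data were seen. It was 90.1% with the reciprocal overlap, 90.0% without minimum-width Nan/+ regions and 90.1% on the Nan/+ list. The motif share was 20.6% with CCNCACCC and 83.2% in promoters of 60 to 70% GC, another added setting, against 78.4%. Promoters of 60 to 70% GC under no region held the motif in 80.5%. The cause of these shifts was not tested beyond the settings' own construction. Of the 23 lists with 1 or more genes, the reciprocal overlap moved 17 by over 1.5 times, the limit of 500 bp moved 3 and leaving out minimum-width Nan/+ regions moved 0. These settings can only lower a count, and the 7 lists with 0 genes could not move. No paired analysis was possible because a single list stands for all ChIP libraries of a genotype, with no value per replicate; for the same reason leaving out a library could not be run. With 1 list per genotype and no strength per region, a region missing from a list can lie just under that list's calling threshold.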

Other observations

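Regions of 1 genotype also lay near the shared ones. Within 5 kb of a shared region's centre, a Nan/+-only region was centred at 346 of the 1530 regions (22.6%) and a WT-only region at 297 (19.4%). These shares were not set beside those of other positions. The lists differ in size, with 15559 Nan/+ and 9174 WT regions, so the shares do not compare nearness. Of the 128 shared regions at a 3′ end, 79 were centred beyond the end of the gene, and the median distance was 214.25 bp past it. Among other hairpins under shared regions, Mir8114 at Glul and Mir8102 at Cwc25 also lay under the Nan/+ region, and Mir1945 at Gspt1 did not.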
